A study of Mus musculus with 8 samples.

Results

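Transcripts of 45 genes of TGF-beta, activin and BMP signaling were followed in 8 mouse mammary tumors. The members are a fixed list of gene names covering ligands, the proteins that store or release them, receptors, SMADs, SMAD corepressors, secreted antagonists and the ID target genes. The list was chosen with earlier results of these data known. Counts of members beside shares of all probe sets are therefore a description only. Each member had 1 probe set that carries its symbol alone, so 45 of the 19937 genes named on the array were described and no choice among probe sets was needed. All tumors came from 4T1 cells, a BALB/c-derived line of mouse mammary carcinoma that was injected into the fourth mammary gland of BALB/c mice and left to grow for 18 days. In the preirradiated group (4 tumors) the gland had received 1 local X-ray dose of 20 Gy before the cells were injected, and in the nonirradiated group (4 tumors) it had not. The time between irradiation and injection, and the age of the mice, are not given in the sources used here. The comparison addresses what differs in tumors that arise in an irradiated bed, and the same cell line and host strain are shared by both groups.

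TGF-beta superfamily ligands are secreted dimers that bring together type I and type II receptor kinases. TGF-beta and activin receptors phosphorylate SMAD2 and SMAD3, BMP receptors phosphorylate SMAD1 and SMAD5, and both kinds of SMAD enter the nucleus with SMAD4. TGF-beta is stored in the matrix as a latent complex, activins and BMPs are held in check by secreted binding proteins, and in tumors and irradiated tissue the pathway is known for its part in fibroblast activation, matrix deposition and restraint of immune cells.

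Values are log2 RMA signals per probe set, on which a step of 1 is a doubling of signal, and levels of different genes cannot be compared because each probe set has its own response. A difference is the preirradiated mean minus the nonirradiated mean, with its standard error (SE) from limma fitted to all 34738 probe sets tested. Array medians lay between 5.94 and 6.0. The tissue was whole tumor, and the carcinoma keratins Krt8 (mean 12.53 in nonirradiated and 12.60 in preirradiated tumors) and Krt18 (11.90 and 11.97) were far above the array medians in both groups. The other markers of the epithelial list differed more between the groups, most of all Krt14 (6.87 and 7.73). Preirradiated tumors 1 and 3 stood apart in 10 skeletal muscle genes, whose mean was 9.20 and 10.58 there and between 6.15 and 6.47 in the other 6 tumors, and the values these tumors move most are also given without them. In bulk tissue, fewer cells of a type and less RNA per cell cannot be told apart. The labels do not say that each tumor came from its own mouse, so p-values measure the spread between these tumors, and 4 tumors against 4 cannot give an exact permutation p below 0.0286.

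The follistatin-like glycoprotein gene Fstl1 was the member with the largest difference, 0.58 higher in preirradiated tumors, followed by the activin subunit gene Inhba, 0.45 higher with a wide spread between tumors. The ID genes Id3 and Id2, which BMP signaling is known to induce, were lower, with differences of -0.25 and -0.22, as were the latency gene Ltbp4 and the ligand gene Bmp2, with -0.23 each. Receptors and SMADs lay close to 0. No member passed an adjusted p under 0.05 in limma (0 of 45; 0% of all probe sets), and the smallest adjusted p among members was 0.620, for Fstl1. The filter that the study itself set (p up to 0.05 before adjustment, a log2 difference of 0.4 or more in size, a mean signal of 4.0 or more) was passed by Fstl1 alone, 1 of 45 against 0.642% of all probe sets in either direction and 0.489% in the higher direction. At an unadjusted limma p under 0.05 there were 7 members, 4 higher (Inha, Smad7, Fst, Fstl1) and 3 lower (Ltbp1, Ltbp4, Id2), against 5.8% of all probe sets. Over the alternatives run for each, that unadjusted p held in 22 of 22 for Fstl1, 21 of 22 for Id2, 19 of 22 for Ltbp4, 18 of 22 for Smad7, 16 of 22 for Ltbp1, 11 of 22 for Fst and 11 of 21 for Inha. These counts include settings that could not change a member's p, namely the log2 limits of 0.3 and 0.6 and the probe set of largest variance. Dropping the limit on the mean hardly changed it, so the counts overstate how far the p was checked. Groups did not overlap for 4 members, Fstl1 and Bmpr1b higher and Ltbp1 and Id2 lower, against 3.36% of all probe sets. Of the 45 differences 29 were above 0 and 16 below, with a median of 0.037 beside -0.0009 over all probe sets. With each array centred on its own median, which moves the median of all probe sets to -0.035, the members split 24 higher to 21 lower.

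**Figure D1:**
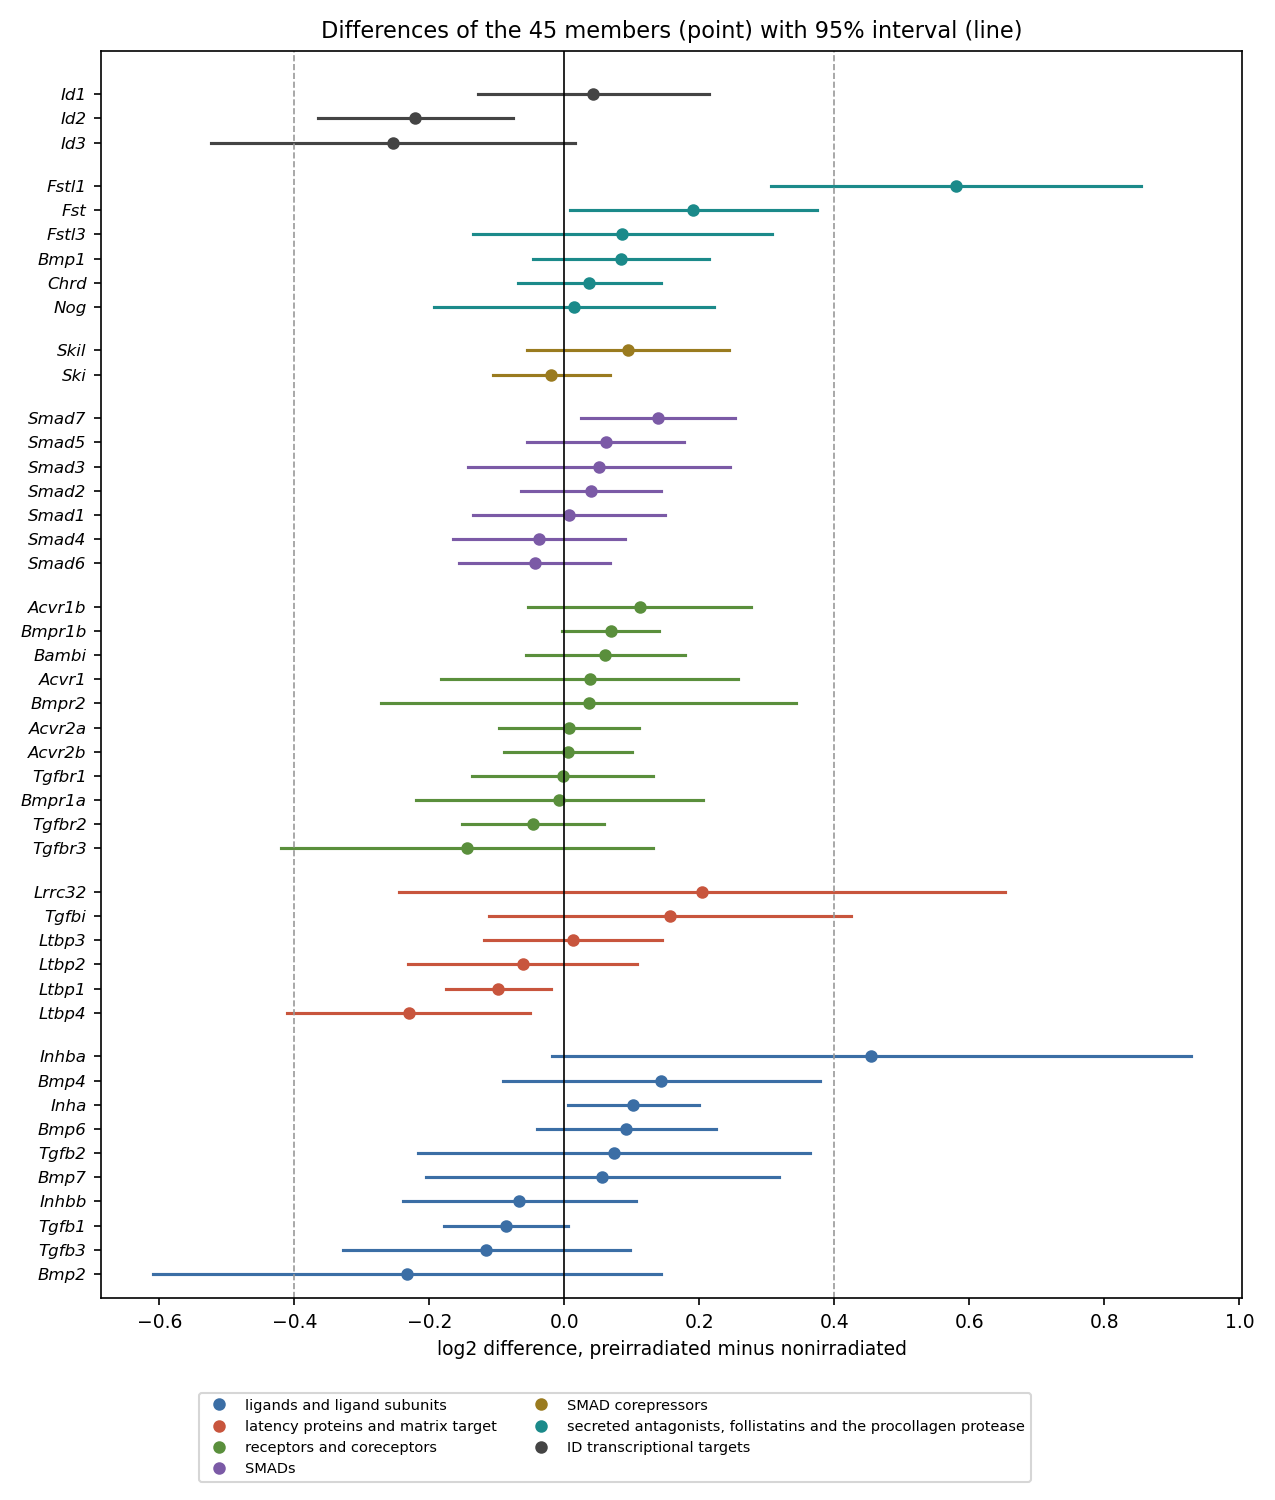
Log2 difference (x axis, preirradiated minus nonirradiated, 4 tumors each) of the 45 members, grouped by role; points are differences, lines are 95% intervals from limma and dashed lines mark -0.4 and 0.4. Fstl1 (0.58) is the single member whose interval lies wholly above 0 with a point beyond 0.4, and receptors and SMADs cluster around 0.

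Promoter sequence from RefSeq (build GRCm38.p6), the 250 bases before the annotated start, was at hand for 31 of the 45 members, in 39 entries because some genes have several starts. The 4 printed here belong to members on which the results turn: Fstl1, with the largest difference, and Id2, Id3 and Ltbp1, which were lower in preirradiated tumors. Lower case is the sequence 5′ to 3′ on the gene's strand. Capitals mark the SMAD-binding element CAGAC (read on both strands, so also GTCTG) and the GC-rich SMAD motif GGCGCC.
Fstl1, chr16:37776805-37777054, plus strand: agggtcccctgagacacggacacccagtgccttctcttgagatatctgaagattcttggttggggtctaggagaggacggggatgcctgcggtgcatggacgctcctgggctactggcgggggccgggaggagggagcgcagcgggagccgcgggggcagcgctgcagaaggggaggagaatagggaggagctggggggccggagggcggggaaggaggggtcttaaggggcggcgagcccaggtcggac
Id2, chr12:25096093-25096342, minus strand: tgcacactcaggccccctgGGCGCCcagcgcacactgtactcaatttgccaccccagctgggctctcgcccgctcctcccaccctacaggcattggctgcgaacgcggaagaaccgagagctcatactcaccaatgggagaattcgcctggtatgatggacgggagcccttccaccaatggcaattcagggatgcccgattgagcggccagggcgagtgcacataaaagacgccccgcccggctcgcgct
Id3, chr4:136143572-136143821, plus strand: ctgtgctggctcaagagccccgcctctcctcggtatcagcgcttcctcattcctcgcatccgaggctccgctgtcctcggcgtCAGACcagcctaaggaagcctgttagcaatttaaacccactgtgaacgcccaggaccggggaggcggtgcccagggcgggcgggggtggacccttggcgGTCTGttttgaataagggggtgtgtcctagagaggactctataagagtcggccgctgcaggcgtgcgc
Ltbp1, chr17:75005279-75005528, plus strand: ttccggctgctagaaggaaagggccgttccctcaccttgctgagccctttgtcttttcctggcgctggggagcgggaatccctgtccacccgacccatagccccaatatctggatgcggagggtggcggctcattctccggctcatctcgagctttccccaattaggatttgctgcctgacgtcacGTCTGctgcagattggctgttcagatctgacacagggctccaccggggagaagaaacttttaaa
The window of Fstl1 held neither motif and was 68.0% G or C. In Id2, GGCGCC began 231 bases before the start, and in Id3, CAGAC or its reverse began 167 and 68 bases before it. The Ltbp1 window, taken at the first of its 2 listed starts, held GTCTG beginning 64 bases before the start. CAGAC was present in 17 of the 39 windows of members (43.6%) and in 42.2% of all 32851 windows, and GGCGCC in 10 of 39 (25.6%) and 9.6%. Several starts of a gene were counted as separate windows, and windows were not matched for G and C content, so these shares are a description only. A match says that the letters are there, not that a SMAD binds, and the windows were not chosen by any measurement of binding.

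Among the 10 ligand genes, 6 were higher and 4 lower, with a median difference of 0.065. Inhba encodes the beta A subunit, whose dimer is activin A. It read 9.41, 9.29, 9.34 and 9.36 in nonirradiated tumors 1 to 4, and 10.06, 10.28, 9.68 and 9.20 in preirradiated tumors 1 to 4. Preirradiated tumors 1 to 3 were above every nonirradiated tumor, and tumor 4 was below every one of them. The group SD was accordingly 0.049 in nonirradiated and 0.48 in preirradiated tumors. The difference of 0.45 (SE 0.21) had an adjusted p of 0.851 in limma, and leaving out preirradiated tumor 4 gave 0.66, leaving out preirradiated tumor 2 gave 0.30. Without tumor 4 Inhba also passed the study's filter.

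Inha encodes the inhibin alpha subunit, which pairs with a beta subunit to make inhibin, an activin antagonist. Its signal was 5.29, 5.41, 5.36 and 5.36 in nonirradiated tumors and 5.44, 5.39, 5.51 and 5.49 in preirradiated tumors. Tumors 1, 3 and 4 of the preirradiated group were above all nonirradiated ones, and tumor 2 lay among them. The difference was 0.10 (SE 0.042; limma adjusted p 0.840), at a signal in the lower part of the array's range.

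None of the TGF-beta ligand genes passed a threshold. Tgfb1, the main TGF-beta isoform of inflamed tissue, differed by -0.086 (SE 0.040), Tgfb3 by -0.12 (SE 0.093) and Tgfb2 by 0.074 (SE 0.13). For Tgfb1 the 95% interval ran from -0.18 to 0.0062, so a change of 0.4 in either direction lies outside it. The other activin subunit, Inhbb, differed by -0.067 (SE 0.075). Of the BMP genes, Bmp4, Bmp6 and Bmp7 were higher by 0.14, 0.092 and 0.056, and Bmp2 differed by -0.23 (SE 0.16). Bmp2 spanned 5.97 in preirradiated tumor 4 to 6.99 in nonirradiated tumor 4, and the other 3 nonirradiated tumors lay between 6.40 and 6.47.

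**Figure D2:**
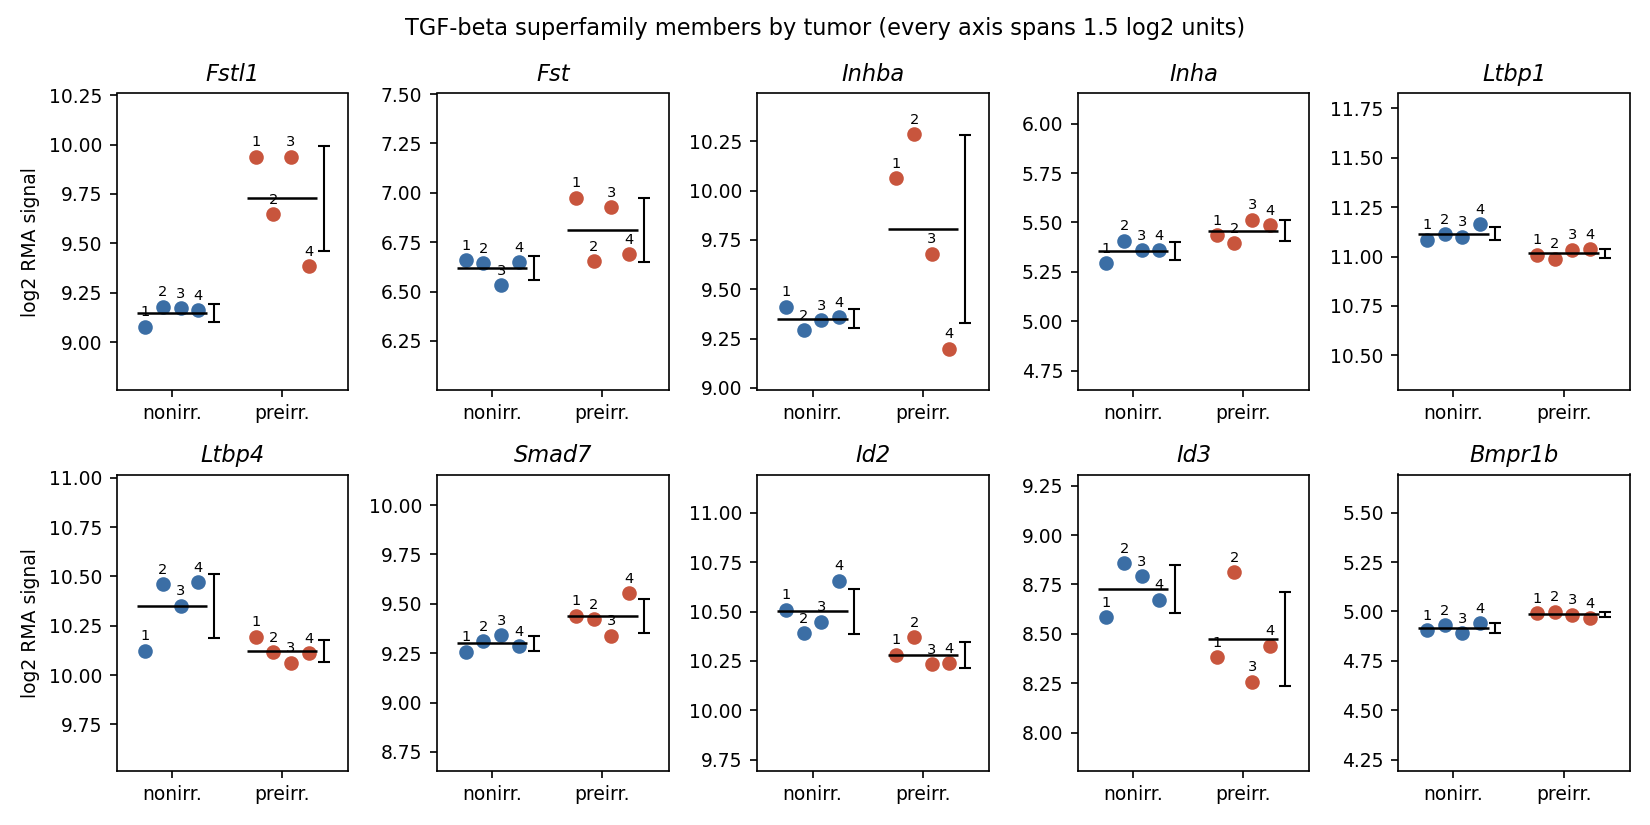
Log2 RMA signal (y axis) in each tumor of 10 members, nonirradiated tumors beside preirradiated ones; points are tumors labelled by number, horizontal lines are group means and the bars beside them span the mean ± SD (n = 4). Fstl1 and Bmpr1b have all 4 preirradiated tumors above all nonirradiated ones, and Ltbp1 and Id2 have all 4 below.

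The latency and matrix genes split 3 higher and 3 lower, with a median of -0.024. Latent TGF-beta binding proteins tether the latent ligand to the matrix. Ltbp1 read 11.09, 11.11, 11.10 and 11.16 in nonirradiated tumors and 11.01, 10.99, 11.03 and 11.04 in preirradiated tumors. The groups did not overlap, although the whole range over 8 tumors was 0.17. The difference was -0.098 (SE 0.034; limma adjusted p 0.808), and the exact two-sided permutation p was 0.0286, the smallest possible.

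Ltbp4 read 10.12, 10.46, 10.35 and 10.47 in nonirradiated tumors and 10.20, 10.12, 10.06 and 10.11 in preirradiated tumors. Nonirradiated tumor 1 lay among the preirradiated values, and the other 3 nonirradiated tumors were above all of them. The difference was -0.23 (SE 0.078; limma adjusted p 0.808), and -0.31 without nonirradiated tumor 1. Ltbp2 (-0.062) and Ltbp3 (0.013) differed little.

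Lrrc32 encodes GARP, which docks latent TGF-beta on the surface of regulatory T cells, platelets and some endothelial cells. It read 8.74, 8.69, 8.91 and 8.77 in nonirradiated tumors and 9.43, 9.10, 9.04 and 8.37 in preirradiated tumors. Its layout was that of Inhba, with preirradiated tumors 1 to 3 above and tumor 4 below every nonirradiated tumor. The difference of 0.20 (SE 0.20) was 0.41 without preirradiated tumor 4, where Lrrc32 passed the study's filter, and -0.046 without preirradiated tumors 1 and 3. The means of 7 T cell and regulatory T cell markers lay between 6.31 and 6.55 in nonirradiated and 5.96 and 6.34 in preirradiated tumors (0 of 7 higher), and those of 7 endothelial markers between 8.31 and 8.52 and between 8.44 and 8.74 (7 of 7 higher). Their part in the Lrrc32 values was not tested. Tgfbi, a secreted matrix protein induced by TGF-beta, was higher by 0.16 (SE 0.12) with overlapping groups.

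The 11 receptor and coreceptor genes lay between -0.14 and 0.11, with a median of 0.0067 and 7 higher to 4 lower (5 to 6 with each array centred). Their 95% intervals ran from -0.42 for Tgfbr3 at the lowest to 0.34 for Bmpr2 at the highest. The TGF-beta receptors Tgfbr1 and Tgfbr2 differed by -0.0026 (SE 0.059) and -0.046 (SE 0.046). In the group SDs Tgfbr1 was uneven, 0.013 in nonirradiated and 0.12 in preirradiated tumors. Tgfbr3, the coreceptor betaglycan, had the widest range among receptors and read 8.99, 9.19, 9.35 and 9.46 in nonirradiated and 9.29, 9.11, 9.15 and 8.86 in preirradiated tumors. The groups overlapped, and its difference of -0.14 (SE 0.12) was within the spread.

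The activin and BMP receptors gave small values throughout. Acvr1b, the activin type I receptor, was higher by 0.11 (SE 0.072), and Acvr1, Acvr2a and Acvr2b by 0.037, 0.0067 and 0.0055. Bmpr1a and Bmpr2 differed by -0.0072 and 0.036, and the pseudoreceptor gene Bambi by 0.060. Bmpr1b, a BMP type I receptor, was 4.90, 4.93, 4.89 and 4.94 in nonirradiated and 4.99, 5.00, 4.98 and 4.97 in preirradiated tumors. The groups did not overlap, but its difference was 0.069 (SE 0.031; limma adjusted p 0.856) at a mean of 4.92 and 4.98, near the study's limit of 4.0 for an expressed gene.

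Of 7 SMAD genes 5 were higher and 2 lower, between -0.044 (Smad6) and 0.14 (Smad7), with 95% intervals from -0.16 to 0.25. Smad7 encodes the inhibitory SMAD that TGF-beta itself induces as feedback. Its signal was 9.26, 9.31, 9.34 and 9.29 in nonirradiated and 9.44, 9.42, 9.34 and 9.55 in preirradiated tumors. Tumors 1, 2 and 4 of the preirradiated group were above all nonirradiated tumors, and tumor 3 was level with the highest of them. The difference was 0.14 (SE 0.050; limma adjusted p 0.812). It was 0.19 without preirradiated tumors 1 and 3, 0.10 without preirradiated tumor 4, and 0.11 with each array centred, where its unadjusted p was no longer under 0.05.

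Smad3, which carries the TGF-beta and activin signal, had the widest range of the SMAD genes, with 10.66, 10.65, 10.69 and 10.91 in nonirradiated and 10.82, 10.95, 10.72 and 10.63 in preirradiated tumors. Nonirradiated tumor 4 and preirradiated tumor 2 were the highest of their groups, and the difference of 0.051 (SE 0.084) was -0.0059 without preirradiated tumor 2. The other SMAD genes differed by 0.040 (Smad2), -0.037 (Smad4, the shared partner), 0.0071 (Smad1) and 0.062 (Smad5).

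The corepressors Ski and Skil hold SMAD complexes inactive on DNA. Skil read 9.17, 9.14, 9.04 and 9.15 in nonirradiated and 9.25, 9.38, 9.12 and 9.13 in preirradiated tumors. Tumors 1 and 2 of the preirradiated group were above the nonirradiated range and tumors 3 and 4 within it. The differences were 0.095 (SE 0.065) for Skil and -0.019 (SE 0.038) for Ski.

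All 6 secreted antagonists and protease genes had differences above 0, with a median of 0.085, but 5 of 6 did with each array centred, with a further quantile normalization, or without preirradiated tumors 1 and 3. Fstl1 encodes a secreted glycoprotein of mesenchymal cells that binds BMP ligands and receptors. It read 9.08, 9.18, 9.17 and 9.16 in nonirradiated tumors and 9.94, 9.65, 9.94 and 9.38 in preirradiated tumors. All preirradiated tumors were above all nonirradiated ones, with tumors 1 and 3 the highest and tumor 4 the nearest to the other group. The difference was 0.58 (SE 0.12; 95% interval 0.31 to 0.85), a 1.495-fold higher signal, with a limma adjusted p of 0.620 and an exact two-sided permutation p of 0.0286. Without preirradiated tumors 1 and 3 it was 0.37, under the 0.4 of the study's filter, and without preirradiated tumor 4 it was 0.69. The RefSeq window of Fstl1 printed above held neither SMAD motif.

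Fstl1 is a gene of fibroblasts and muscle, and markers of both were also higher in the preirradiated group. The mean of 10 fibroblast markers lay between 9.25 and 9.43 in nonirradiated tumors and was 9.89, 9.55, 9.79 and 9.57 in preirradiated tumors 1 to 4 (9 of 10 higher). The skeletal muscle mean was 9.20, 6.19, 10.58 and 6.36 in the same tumors (10 of 10 higher). The mean of 7 pericyte and smooth muscle markers was 8.15, 7.60, 8.23 and 7.41 against 7.32 to 7.40 in nonirradiated tumors (6 of 7 higher). Of these 7, Des is also a gene of striated muscle and read 9.17, 6.15, 11.28 and 6.19; the other 6 had a mean of 7.98, 7.84, 7.73 and 7.61 against 7.50 to 7.59 (5 of 6 higher), a split made after the values were seen. Without tumors 1 and 3 the skeletal muscle difference was 0.010, the fibroblast difference 0.18, that of the 7 pericyte and smooth muscle markers 0.14 (0.48 with them) and the Fstl1 difference 0.37. The part of either cell type in the Fstl1 value was not tested.

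**Figure D3:**
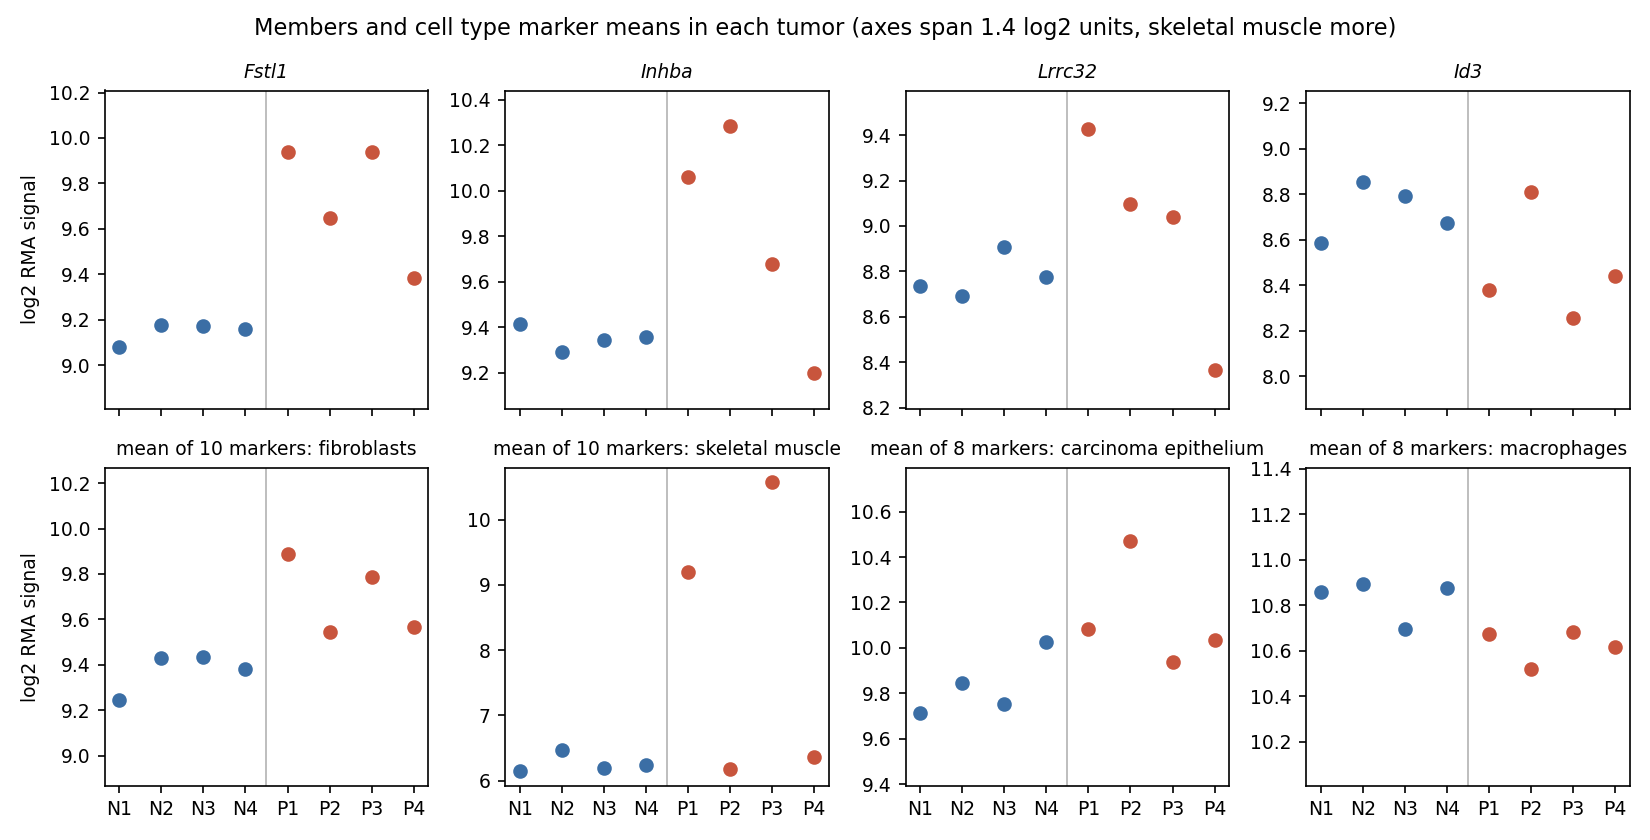
Log2 RMA signal in nonirradiated (N1 to N4) and preirradiated (P1 to P4) tumors for Fstl1, Inhba, Lrrc32 and Id3 (upper panels) and for the mean of fibroblast, skeletal muscle, carcinoma epithelium and macrophage markers (lower panels); each point is 1 tumor. Fstl1 and both the fibroblast and skeletal muscle means are highest in P1 and P3. Inhba and the epithelial mean are highest in P2. In P4 Inhba is at its lowest (9.20), and the epithelial mean (10.03) is above all nonirradiated tumors. The part of any cell type in the member values was not tested.

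Fst encodes follistatin, the classical activin-binding protein. It read 6.66, 6.64, 6.53 and 6.65 in nonirradiated and 6.97, 6.65, 6.93 and 6.69 in preirradiated tumors. As for Fstl1, tumors 1 and 3 were the highest, while preirradiated tumor 2 lay within the nonirradiated range. The difference was 0.19 (SE 0.080; limma adjusted p 0.848), and 0.051 without those tumors, where the mean of skeletal muscle markers was also level with the nonirradiated group. The part of muscle in this value was not tested.

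Fstl3, a second follistatin family antagonist of activin, read 8.88, 9.08, 9.21 and 9.20 in nonirradiated and 9.39, 9.04, 9.09 and 9.19 in preirradiated tumors. The groups overlapped, and the difference was 0.086 (SE 0.097). The BMP antagonist genes Nog and Chrd differed by 0.015 and 0.037, and Bmp1, the procollagen protease that also cleaves chordin and latency proteins, by 0.084 (SE 0.057).

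ID proteins are inhibitors of basic helix-loop-helix factors, and their genes are among the most direct targets of BMP SMADs. Id2 read 10.51, 10.39, 10.45 and 10.66 in nonirradiated and 10.28, 10.37, 10.23 and 10.24 in preirradiated tumors. The groups did not overlap, with preirradiated tumor 2 and nonirradiated tumor 2 next to each other at the border. The difference was -0.22 (SE 0.063; 95% interval -0.37 to -0.076), with a limma adjusted p of 0.755 and an exact two-sided permutation p of 0.0286. It was -0.20 without preirradiated tumors 1 and 3.

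Id3 read 8.58, 8.86, 8.79 and 8.67 in nonirradiated and 8.38, 8.81, 8.26 and 8.44 in preirradiated tumors. Tumors 1, 3 and 4 of the preirradiated group were below all nonirradiated tumors, and tumor 2 was within their range. The difference was -0.25 (SE 0.12; limma adjusted p 0.856), -0.37 without preirradiated tumor 2 and -0.10 without preirradiated tumors 1 and 3. Id1 differed by 0.043 (SE 0.074). The median deviation of the 3 ID genes from their nonirradiated means was -0.22, 0.085, -0.27 and -0.26 in preirradiated tumors 1 to 4. In preirradiated tumor 2 this median was not low, although its Id2 (10.37) was below every nonirradiated tumor. That tumor had the highest carcinoma epithelium mean, 10.47 against 9.94 to 10.08 in the other preirradiated and 9.72 to 10.02 in the nonirradiated tumors (8 of 8 markers higher in the preirradiated group). Macrophage markers were lower in the preirradiated group (0 of 8 higher), with means between 10.52 and 10.68 against 10.70 to 10.89. The part of either cell type in the ID values was not tested.

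The highest and lowest values of the members were spread unevenly over the tumors. Nonirradiated tumor 4 had the highest value of the 8 tumors for 13 of the 45 members and nonirradiated tumor 1 the lowest for 16. Among all probe sets these tumors were highest in 10.3% and lowest in 18.1%. In the preirradiated group, tumor 2 was highest for 11 members and tumor 1 for 9, and tumor 4 was lowest for 13, beside 13.9%, 10.6% and 13.2% of all probe sets. The SD was larger in the preirradiated group for 24 of 45 members (53.3%) and for 53.1% of all probe sets, so the wide spread of Inhba and Lrrc32 was not shared by the members at large. The median SD of members was 0.094 in nonirradiated and 0.10 in preirradiated tumors.

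**Figure D4:**
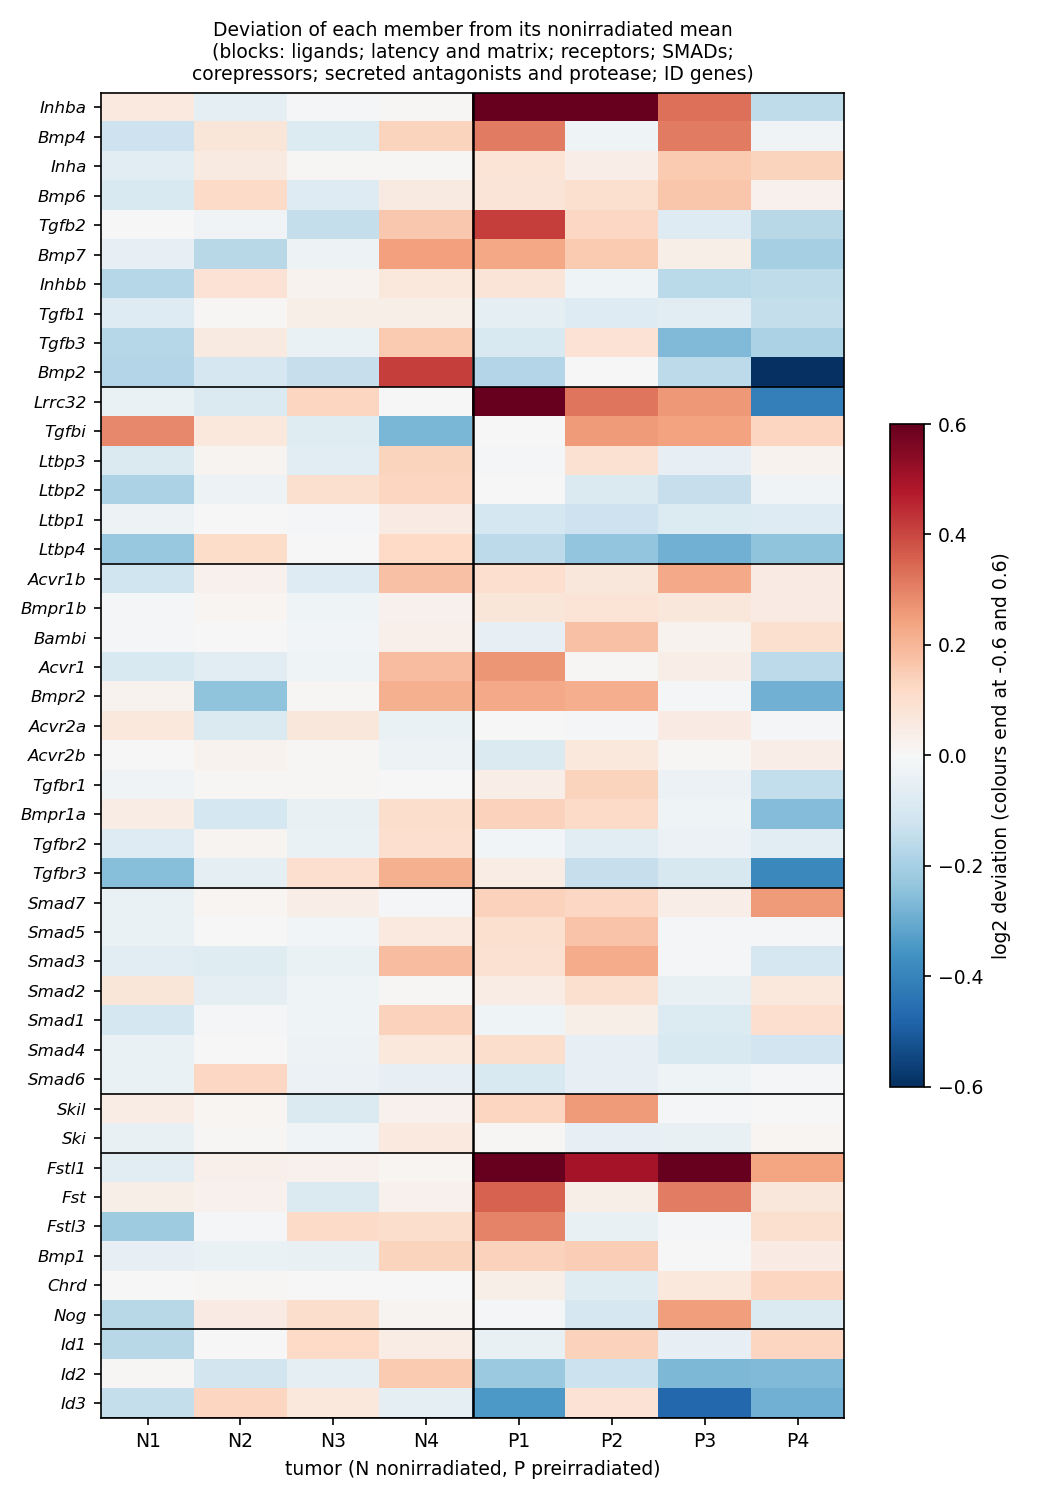
Deviation of each of the 45 members (rows, in blocks by role) in each tumor (columns, N1 to N4 nonirradiated and P1 to P4 preirradiated) from that gene's nonirradiated mean, in log2 units; red is higher, blue is lower, and colours end at -0.6 and 0.6. Fstl1 is red in all 4 preirradiated columns, Inhba and Lrrc32 are red in P1 to P3 and blue in P4, and most receptors and SMADs are pale.

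A wider set of 105 pathway genes was described beside the members, of which 98 were analysed here. Of the 98, 64 were higher and 34 lower, and 0 passed an adjusted p under 0.05 in limma (15 higher and 3 lower at an unadjusted p under 0.05, against 5.8% of all probe sets). With each array centred, higher and lower genes were 8 and 13 of the other ligands and 1 and 7 of the other receptors and coreceptors. They were 11 and 13 of the extracellular genes, 7 and 10 of the intracellular regulators, 18 and 3 of the TGF-beta targets and 3 and 4 of the BMP targets. Only the TGF-beta targets then had more genes higher than lower, but centring also moved the median of all probe sets to -0.035. Beside that, list medians were -0.021 (other ligands), -0.062 (other receptors and coreceptors) and -0.031 (extracellular genes). They were -0.0067 for the intracellular regulators, 0.17 for the TGF-beta targets and -0.0695 for the BMP targets. The study's filter was passed by 7, all higher, against 0.642% of all probe sets. The other ligand genes gave 0 of 21 at an unadjusted limma p under 0.05, and their smallest p-values belonged to Lefty1 (-0.095) and Gdf3 (-0.18), both Nodal-related. Among 8 other receptors and coreceptors the BMP coreceptor gene Rgmb was lower without overlap, with a difference of -0.15 (SE 0.057; limma adjusted p 0.828). Its relative Hjv, a gene of skeletal muscle, read 5.99, 6.17, 6.20 and 6.08 in nonirradiated and 7.36, 6.04, 8.79 and 6.22 in preirradiated tumors. Preirradiated tumors 1 and 3, high in muscle markers, were the high ones for Hjv, and the difference of 0.99 (SE 0.54) was 0.024 without them. The part of muscle in the Hjv value was not tested.

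The 24 other extracellular activators and antagonists were 13 higher and 11 lower, with a median of 0.0028. At an unadjusted p under 0.05 in limma there were 4 higher and 2 lower, against 5.8% of all probe sets. Grem1 encodes gremlin 1, a BMP antagonist secreted by fibroblasts, and passed the study's filter. It read 6.54, 6.45, 6.18 and 6.44 in nonirradiated and 6.93, 7.17, 7.23 and 6.55 in preirradiated tumors. The groups did not overlap, although preirradiated tumor 4 was nearly level with nonirradiated tumor 1. The difference was 0.57 (SE 0.15; limma adjusted p 0.678), and 0.46 without preirradiated tumors 1 and 3. The fibroblast marker means are those given for Fstl1, and their part in the Grem1 value was not tested. Itgb6, the beta subunit of the epithelial integrin that releases TGF-beta from its latent complex, was higher by 0.17 (SE 0.055; limma adjusted p 0.789) without overlap, and by 0.098 without preirradiated tumors 1 and 3. Its means of 4.72 in nonirradiated and 4.89 in preirradiated tumors were near the study's limit of 4.0 for an expressed gene. Itgb6 was highest in preirradiated tumor 1 (5.02), and the epithelial marker mean was highest in preirradiated tumor 2. The part of epithelium in the Itgb6 value was not tested. The lower genes at an unadjusted p under 0.05, named after their values were seen, were Crim1, a membrane protein that binds BMPs (-0.16, SE 0.057, no overlap; limma adjusted p 0.812), and Nrros, which docks latent TGF-beta on macrophage-lineage cells (-0.25, SE 0.089; limma adjusted p 0.812). The macrophage marker means are those given for the ID genes, and their part in the Nrros value was not tested. The 17 other intracellular regulators were 12 higher and 5 lower (7 and 10 with each array centred), and Pmepa1, a TGF-beta-induced inhibitor of SMAD signaling, was higher by 0.15 (SE 0.061; limma adjusted p 0.842), and Usp15, a deubiquitinase of the receptor, by 0.079.

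Of 21 genes known to be induced by TGF-beta, 20 were higher and 1 lower, with a median of 0.21 beside -0.0009 over all probe sets. The study's filter was passed by 6, against 0.642% of all probe sets. They were the matrix genes Tnc (0.63), Col1a2 (0.54) and Col1a1 (0.49), the contractile genes Tagln (0.47) and Acta2 (0.43), and the protease inhibitor gene Timp1 (0.44). Their limma adjusted p-values were 0.595 or above. Collagen and contractile genes had been seen to be higher in these tumors before the list was drawn up, so its direction is not independent evidence. The list shares 5 genes with the fibroblast and pericyte markers (Postn, Col1a1, Col1a2, Acta2, Tagln). Of the other 16, 15 were higher and 2 passed the study's filter (Tnc, Timp1). Without preirradiated tumors 1 and 3 the median was 0.098, with 18 higher and 3 lower, and the filter was passed by 4 in the higher and 1, Angptl4, in the lower direction (named after its values were seen); Acta2 (0.36) and Timp1 (0.34) no longer passed it. With each array centred, 18 were higher and 3 lower, and 5 passed the filter, without Acta2 (0.39). The 7 genes induced by BMP outside the members were 3 higher and 4 lower, with a median of -0.036 and none past the study's filter, and those with the smallest p-values were Id4 (-0.085) and Hey1 (0.076). Of these 7, Id4, Atoh8, Msx2, Dlx5 and Sp7 had means below the array medians, and differences of dim probe sets are understated. The fibroblast, pericyte and muscle marker means are those given for Fstl1, and their part in these lists was not tested.

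**Figure D5:**
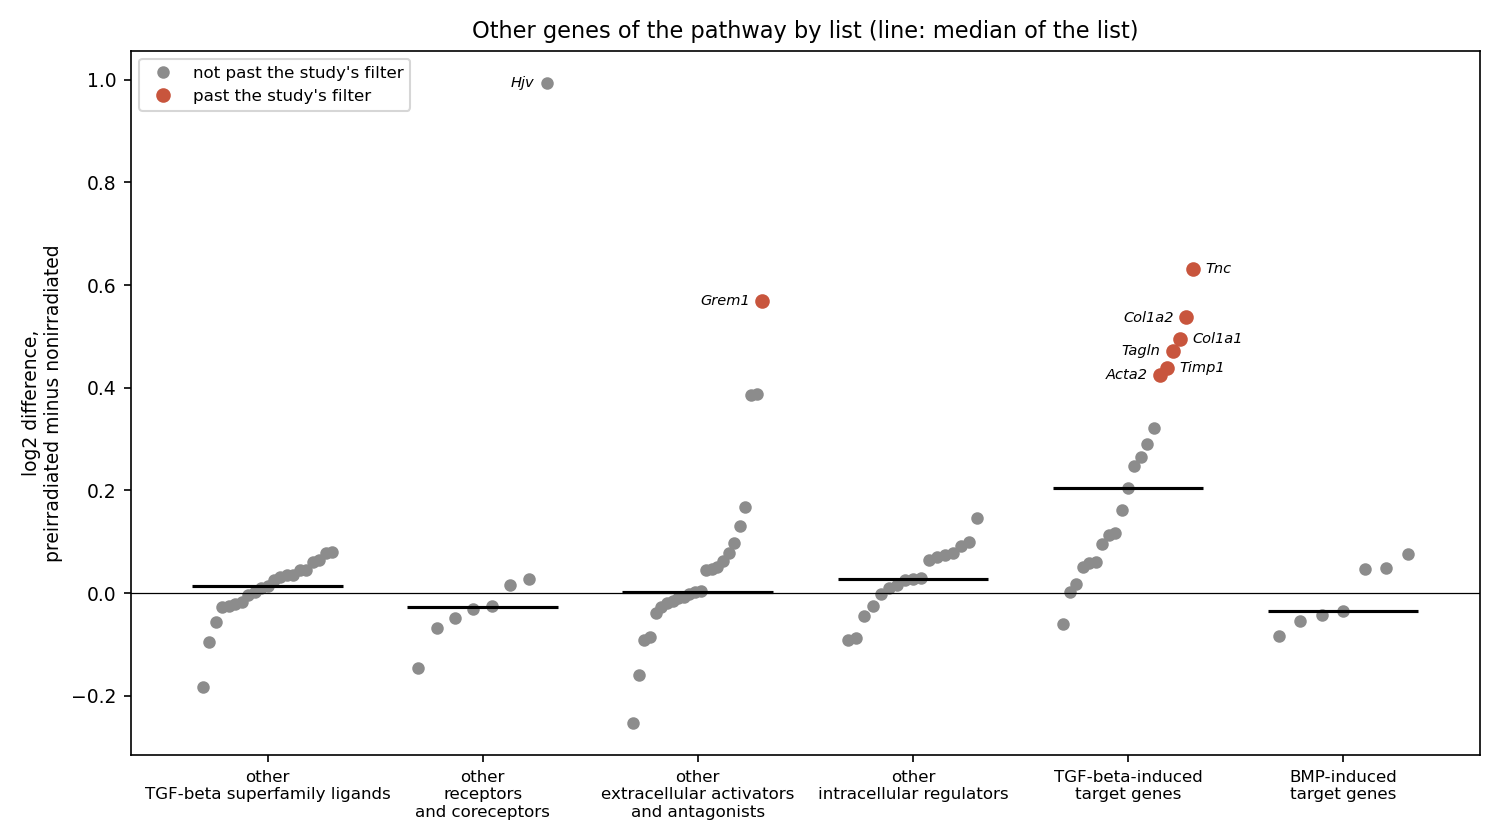
Log2 difference (y axis, preirradiated minus nonirradiated, 4 tumors each) of 98 other pathway genes in 6 lists; each point is 1 gene, the black line is the median of the list and red points passed the study's filter. Of the 7 genes past the filter, 6 are TGF-beta-induced targets and the other is Grem1, whereas Hjv at 0.99 did not pass.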

How the data were processed

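RNA of whole tumor tissue was measured on 1 Affymetrix Mouse Gene 1.0 ST array per tumor. The deposited values are log2 signals, 1 per probe set, computed by the authors with RMA in the affy package, per the series' design text, and the submitters' processing notes name R 2.15.3. The chip description file and genome build are not given in the sources used here. RMA corrects background and makes the distributions of arrays alike, so a change in total RNA cannot be seen, and differences of dim probe sets are understated.

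Of 34760 probe sets, 34738 had a mean of at least 4.0, the study's own expression limit, and were tested. Gene symbols came from the platform annotation (21640 probe sets with 1 symbol, 1321 with several, 11799 with none), with older list names matched through RefSeq synonyms. A gene is represented by its single-symbol probe set of highest mean. The number of arrays limits the precision, and 0 columns of other samples were in the table.

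Tumors were grouped by their titles. The difference between the groups was estimated from all 8 arrays by the lmFit and eBayes functions of limma (version 3.58.1, under R 4.3.3), whose two-sided moderated test the design text names, with Benjamini-Hochberg adjustment over all probe sets. An exact permutation test over 70 assignments of tumors stands beside single members. The procedure was tested on simulated data, where recovery was required only for a difference larger than that of any member. That test does not show that differences of the size reported here would be found. Promoters were searched on both strands.

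The members and all gene lists were chosen with earlier results of these data known. Values in every tumor are given for members past the study's filter, at an unadjusted p under 0.05 or without overlap between groups, and for the member of widest range in each role; other members are named with their difference. From each other pathway list, genes past the study's filter and the 2 with the smallest p are named. Alternatives covered a further quantile normalization, centring of arrays, array weights, the replicate number as a block, the expression and change limits, the choice of probe set, and leaving out single tumors or both tumors high in muscle genes.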

Additional observations from a re-analysis of the deposited data

Results flagged for a closer look

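Values of 1 tumor were compared with those of the other 3 in its group by Dixon's gap test, for 140 sets of 4 values (members, named pathway genes and marker means in each group). In 14 of them 1 tumor stood apart, 8 of them members, and chance sets apart about 1 in 20 such groups. No explanation was tested for any of them.

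Among ligands and receptors, nonirradiated tumor 4 was high for Bmp2 (6.99 against 6.40 to 6.47), nonirradiated tumor 1 was low for Tgfbr1 (10.22 against 10.25 in the others), and preirradiated tumor 3 was high for Acvr2a (7.13 against 7.07 to 7.08). Among SMADs, nonirradiated tumor 4 was high for Smad3 (10.91 against 10.65 to 10.69) and nonirradiated tumor 2 for Smad6 (6.85 against 6.68 to 6.69). Among secreted proteins, nonirradiated tumor 3 was low for Fst (6.53 against 6.64 to 6.66), nonirradiated tumor 1 was low for Fstl1 (9.08 against 9.16 to 9.18), and nonirradiated tumor 4 was high for Bmp1 (11.84 against 11.66 in the others). Most of these gaps are small on the log2 scale, and those of Bmp2 and Smad3 are the widest of the members.

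Outside the members, nonirradiated tumor 2 was low for Usp15 (8.72 against 8.91 to 8.94). The adipocyte marker mean was high in nonirradiated tumor 2 (6.40 against 5.99 to 6.01) and in preirradiated tumor 1 (7.72 against 6.12 to 6.28). The macrophage marker mean was low in nonirradiated tumor 3 (10.70 against 10.86 to 10.89). The B cell marker mean was high in nonirradiated tumor 4 (5.86 against 5.20 to 5.28) and, by a small margin, in preirradiated tumor 4 (5.28 against 5.25 in the others).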

How the results depend on the processing

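No member and no probe set passed the adjusted threshold in limma under any of the 20 alternatives that gave a count (7 members had an unadjusted p under 0.05). The study's filter was passed by 1 member, Fstl1; there were 2 with a further quantile normalization or array weights (Inhba added), 0 at a log2 limit of 0.6 and 0 without preirradiated tumors 1 and 3, and 1 to 3 when 1 tumor was left out (3 without preirradiated tumor 4, with Inhba and Lrrc32). The Fstl1 difference stayed between 0.37 and 0.69. The 7 members at an unadjusted p under 0.05 became 11 with array weights, 3 without preirradiated tumors 1 and 3, and 4 to 8 without 1 tumor (4 without nonirradiated tumor 4); with each array centred, their split of 4 higher to 3 lower became 1 to 5. The 4 members without overlap became 11 without preirradiated tumors 1 and 3, where fewer tumors are compared. They were 5 to 8 without 1 tumor (7 without nonirradiated tumor 1, 8 without preirradiated tumor 2). Matching shares over all probe sets are not given for these settings. The counts at an unadjusted p or without overlap therefore cannot be set beside 5.8% or 3.36%, which belong to the main fit. The median member difference of 0.037 was -0.011 without preirradiated tumors 1 and 3 and 0.012 to 0.058 without 1 tumor. Over all probe sets, 223 past the study's filter (170 higher, 53 lower) became 100 with the mean of all probe sets of a gene, 102 with 1 probe set per gene, 438 at a log2 limit of 0.3, 50 at 0.6, and 181 to 385 without 1 tumor (335 without preirradiated tumor 2, 385 without preirradiated tumor 4); with each array centred the split was 121 to 70, and with array weights 251 to 53. Smad3 (0.051) was -0.0059 without preirradiated tumor 2 and ran up to 0.11 when another tumor was left out, and Lrrc32 was -0.046 without preirradiated tumors 1 and 3. The cause of these shifts was not tested. A higher expression limit of 6.0 leaves out Inha, Bmpr1b and other dim members and gives no value for them.

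The titles number the tumors but do not say that equal numbers mark pairs. Deviations of same-numbered tumors correlated at -0.075, -0.29, -0.088 and -0.18, and 0 of 4 correlated best with their own number. Such correlations show no shared expression pattern by number, and cannot tell whether same-numbered tumors were paired in handling. With the number as a replicate block, 4 members had an unadjusted p under 0.05 (1 higher, 3 lower), 1 passed the study's filter, 193 probe sets passed it and 0 passed the adjusted threshold.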
